A study of Mus musculus with 24 samples.

Results

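Expression of 9 genes of pericellular proteolysis was described among the 26411 genes counted in neural stem and progenitor cells (NSPCs) with both, one or no intact alleles of Kat6a, which encodes a histone acetyltransferase. The 9 genes were taken by name and were chosen by role and by measured values. They were the plasminogen activators Plau and Plat, the urokinase receptor Plaur, the serpin Serpine2, the matrix metalloproteases Mmp2 and Mmp14, and the metalloprotease inhibitors Timp1, Timp2 and Timp3. Plaur was selected on its counts, because its level in Kat6a-/- NSPCs differed from Kat6a+/+ NSPCs in opposite directions in the 2 culture conditions. That choice used Kat6a-/- and Kat6a+/+ values in both conditions, so that Plaur is described with no test in any comparison, and counts of genes called or not overlapping are over the other 8.

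Plasminogen activators are secreted proteases that cut plasminogen into plasmin, which degrades fibrin and matrix proteins. The urokinase receptor holds urokinase at the cell surface, and serpins such as protease nexin-1, the product of Serpine2, block the activators. Matrix metalloproteases cleave collagens and other matrix proteins, membrane-type metalloproteases activate secreted ones, and TIMP proteins inhibit them. In the developing brain, these proteins are known for roles in cell migration, process outgrowth and matrix turnover.

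The cells were isolated at E12.5 from the dorsal telencephalon, which forms the cortex, of mouse embryos and were kept in neurosphere culture before the experiment. The paper reports that growth form went with genotype. Kat6a+/- colonies were smaller and tended to attach, while Kat6a-/- cells made few floating colonies, adhered to the plastic and proliferated more slowly. The part of attachment and growth rate in the results was not tested. Proliferating NSPCs were sampled after 3 days with FGF2 and EGF, and differentiating NSPCs after 3 days on poly-L-ornithine and laminin in medium with 1% serum. The 3 genotypes were Kat6a+/+, Kat6a+/- and Kat6a-/-, in which the null allele is a germline deletion of internal exons on a C57BL/6 background, so that every cell of an embryo carries it. There were 4 libraries in each of 6 groups, with total counts between 7826660 and 40838203. Each library is named by the embryo it came from, so that p-values measure the spread between these embryo cultures. By these labels, 6 embryos gave a library in both conditions. The main fits over both conditions blocked on litter and not on embryo, so that they did not pair these libraries. Kat6a-/- replicates 1 and 2 were littermates in each condition, and the main differentiating fit had no litter block. The Kat6a+/+ replicate 2 libraries carry the litter labels 4346 and 4364, which differ by the order of 2 digits, and 7 embryos would be shared if these were the same litter. RNA was extracted with a different kit in each condition, and kit and condition cannot be told apart.

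The 10 NSPC markers examined were above 1 CPM (counts divided by the TMM-scaled library total) in every library. Kat6a counts over the whole gene, which include exons outside the deletion, were called as lower in differentiating Kat6a-/- NSPCs (log2 fold-change -0.69, SE 0.08, FDR 3.33e-05) and not in proliferating ones (-0.13, SE 0.06, FDR 0.1). The Kat6a-/- and Kat6a+/+ libraries overlapped in both conditions, and these counts do not check the label of a single library. In each condition, Y-linked reads marked 3 of 4 Kat6a+/+ libraries but 1 of 4 in Kat6a+/- and 1 of 4 in Kat6a-/-, and sex was therefore not balanced over genotypes. One embryo label went against these reads. The differentiating library Kat6a+/+ replicate 1 held Y-linked reads and the proliferating library Kat6a+/+ replicate 1, which carries the same embryo label, did not. Of the Kat6a+/+ replicate 2 libraries, the proliferating library held Y-linked reads and the differentiating library did not. Results in proliferating NSPCs are therefore given with and without Kat6a+/+ replicate 1 where its removal changed a call. In differentiating NSPCs, the fit weighted libraries by their quality, and the 4 Kat6a-/- libraries, replicates 1 to 4, held 16.8%, 4.22%, 69% and 10% of their summed weight. The Kat6a+/+ libraries held 42%, 9.39%, 34.9% and 13.7% of theirs, so that replicate 1, whose embryo label is in doubt, weighed most. The Kat6a+/- libraries held 50.2%, 13.7%, 18.8% and 17.3%.

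All 9 genes passed the filter on low counts in each fit. Plaur passed in differentiating NSPCs through 5 of 12 libraries, of which 3 were Kat6a-/-. On the mm39 build, Plau (Entrez 18792) lies on chromosome 14 from 20886722 to 20893453 and Plaur on chromosome 7 from 24161875 to 24175394, both on the plus strand. Timp1 lies on chromosome X from 20736316 to 20740976, and overlaps Syn1 on the opposite strand, with which it shares no exon bases. Timp3 on chromosome 10 shares 1734 exon bases with Syn3 on the opposite strand, and Timp2 on chromosome 11 shares 332 exon bases with Cep295nl on the same strand. Mmp2, Plau and Mmp14 share 860, 388 and 219 exon bases with the long noncoding RNA genes Gm45472, Gm63115 and Gm62879 on the opposite strand. The strand setting of the counting was not given in the sources used here. A part of the Timp3, Mmp2, Plau and Mmp14 counts could therefore belong to these neighbours on the opposite strand. A part of the Timp2 counts could belong to Cep295nl whatever that setting, since both genes lie on the same strand.

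Promoter sequences were found for 6 of the 9 genes in RefSeq (GRCm38.p6). Those of Plaur and Timp1 are shown because these genes had the largest fitted interactions of Kat6a-/- genotype and condition among the 9 genes. Each is the 250 bases before the annotated start, on the gene's strand, with matches to the AP-1 motif TGANTCA in capitals. The Plaur sequence is chr7:24462233-24462482 (plus strand) and the Timp1 sequence is chrX:20869916-20870165 (plus strand).
Plaur: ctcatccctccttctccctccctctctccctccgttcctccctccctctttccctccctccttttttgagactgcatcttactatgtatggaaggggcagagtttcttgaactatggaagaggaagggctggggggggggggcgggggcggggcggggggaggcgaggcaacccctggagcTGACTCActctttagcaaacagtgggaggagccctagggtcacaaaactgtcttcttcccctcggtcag
Timp1: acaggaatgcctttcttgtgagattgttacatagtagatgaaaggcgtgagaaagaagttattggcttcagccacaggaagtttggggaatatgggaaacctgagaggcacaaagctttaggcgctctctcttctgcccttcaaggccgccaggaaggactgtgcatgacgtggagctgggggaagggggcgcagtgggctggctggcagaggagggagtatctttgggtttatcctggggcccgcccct
The Plaur promoter held 1 match to TGANTCA on either strand, ending 63 bases before the start, and the other 5 promoters held none. Of 32851 promoters of the same length, 6.75% held a match. The GC box GGGCGG was present in all 6 promoters and in 32.7% of all promoters, while TATAAA was present in none of the 6 and in 12.4% of all. The TEAD motif GGAATG was found in the Timp1 promoter and in 12.6% of all promoters.

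Levels of different genes were compared as counts scaled by gene length and by library total (RPKM). In proliferating Kat6a+/+ NSPCs, Serpine2 was the most abundant of the 9 mRNAs at 813 ± 34.5 RPKM, followed by Plat at 196 ± 6.95 RPKM and Timp2 at 19.9 ± 2.54 RPKM (mean ± SD, n = 4). The ranges of Mmp14, Timp3, Timp1, Mmp2 and Plaur, in this order, overlapped between neighbours, with means from 11.4 down to 4.93 RPKM. Plau was lowest at 0.980 ± 0.319 RPKM. In differentiating Kat6a+/+ NSPCs, the order was Serpine2, Timp2, Plat, Timp3, Mmp14 and Timp1, each outside the range of the next, and then Mmp2, Plau and Plaur, whose ranges overlapped between neighbours. Timp2 had moved to 358 ± 40.3 RPKM and Plaur to 0.252 ± 0.310 RPKM (mean ± SD, n = 4).

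**Figure D1:**
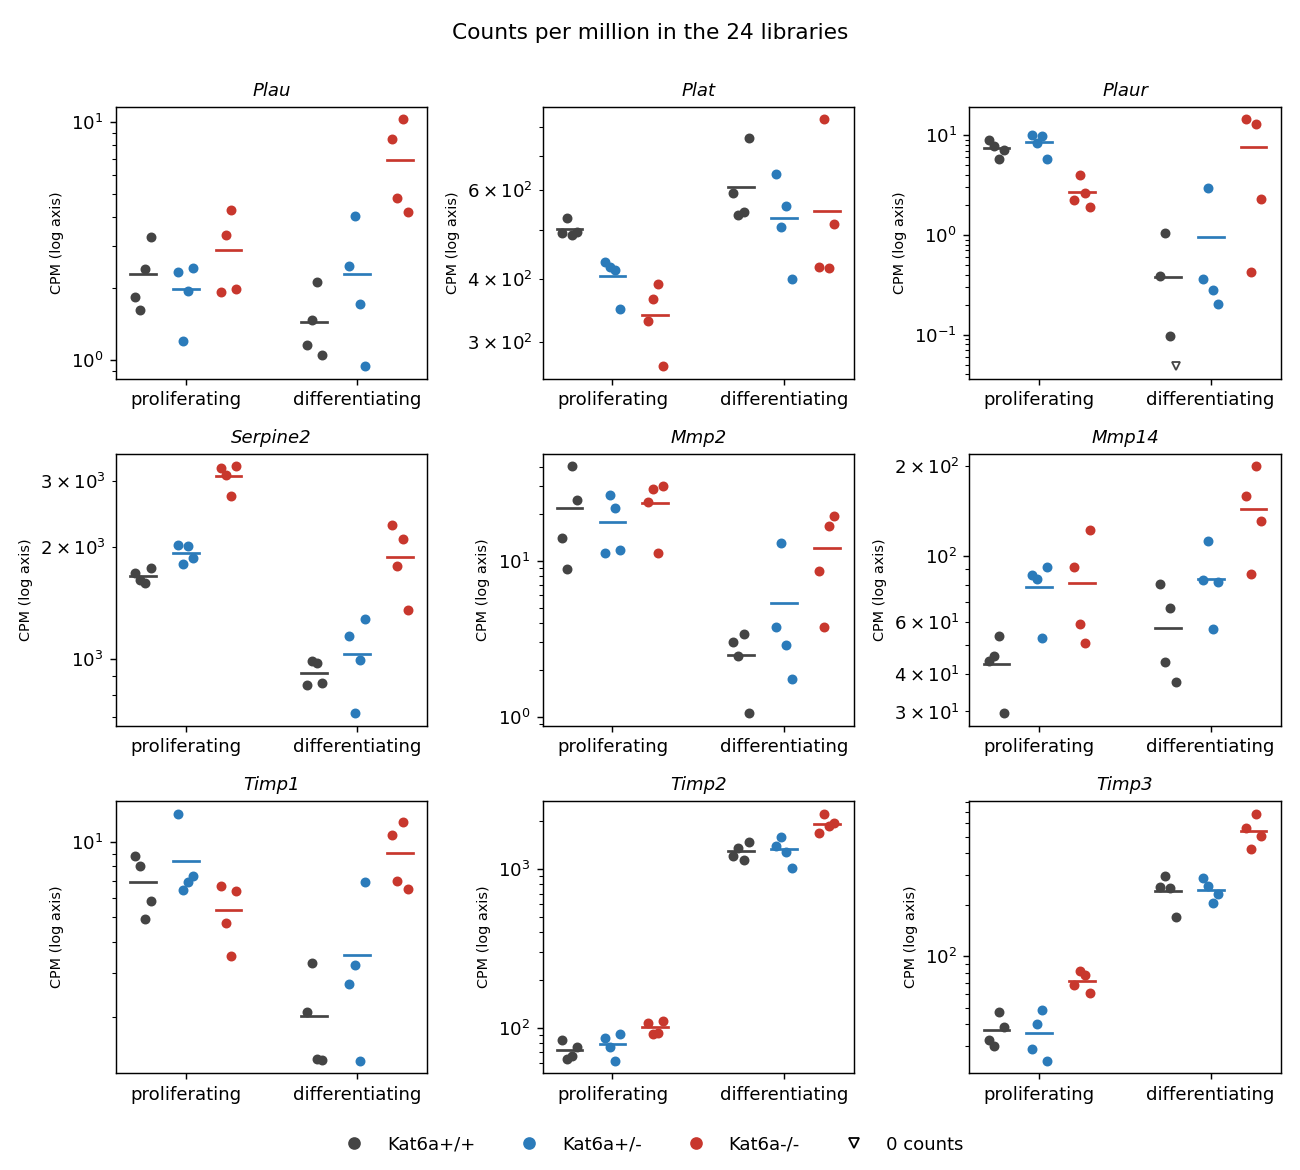
CPM of the 9 genes in the 24 libraries on log axes, with 1 point per library, a line at the mean of each group of 4 and an open triangle for the library with 0 counts. Kat6a-/- libraries lie below the others for Plaur in proliferating NSPCs, and above the Kat6a+/+ libraries for Serpine2 and Timp3 in both conditions.

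The first comparison asked how the 9 genes differ between Kat6a-/- and Kat6a+/+ NSPCs while the cells divide. Serpine2, Timp3, Timp2 and Mmp14 were higher in Kat6a-/- NSPCs and Plat was lower. These were 5 of the 8 genes tested (FDR under 0.05), beside 30.0% of all 12276 genes, with 16.2% of all genes higher and 13.8% lower. The median log2 fold-change of the 8 genes was 0.49 against 0.00 for all genes.

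Among the activators, Plat, which encodes tissue plasminogen activator, had 493, 528, 489 and 496.5 CPM in the Kat6a+/+ libraries and 329.6, 365.5, 392 and 269 CPM in the Kat6a-/- libraries, replicates 1 to 4. All Kat6a-/- libraries were below all Kat6a+/+ libraries. The log2 fold-change was -0.51 (SE 0.09, FDR 0.00122). Plau, which encodes urokinase, ranged from 1.62 to 3.30 CPM in Kat6a+/+ and from 1.92 to 4.27 CPM in Kat6a-/- NSPCs, with overlapping groups (log2 fold-change 0.46, SE 0.30, FDR 0.256).

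Plaur, the receptor that binds urokinase, had 8.98, 7.82, 5.83 and 7.10 CPM in proliferating Kat6a+/+ libraries. It had 9.98, 8.32, 9.96 and 5.76 CPM in Kat6a+/- libraries and 2.26, 3.99, 2.63 and 1.89 CPM in Kat6a-/- libraries. The 4 Kat6a-/- libraries were all below the 8 others. The fitted log2 fold-change of Kat6a-/- against Kat6a+/+ was -1.44 (SE 0.27), a value that chose the gene. It lay between -1.59 and -1.32 when any one library was left out.

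Serpine2, the inhibitor of plasminogen activators and thrombin, had 1696, 1632, 1597 and 1757 CPM in Kat6a+/+ libraries against 3244, 3102, 2739 and 3277 CPM in Kat6a-/- libraries. The groups were well apart, and the log2 fold-change was 0.91 (SE 0.08, FDR 1.01e-05). Mmp14, a membrane-type metalloprotease that activates pro-MMP2, had 44.3, 46.0, 53.6 and 29.6 CPM in Kat6a+/+ libraries against 91.9, 58.8, 51.0 and 122 CPM in Kat6a-/- libraries. The groups overlapped in 1 library each, and the log2 fold-change was 0.84 (SE 0.25, FDR 0.0272). This call was lost without Kat6a+/+ replicate 1, the library whose embryo label is in doubt (FDR 0.0759), and without 3 other libraries, Kat6a+/+ replicate 4 and Kat6a-/- replicates 1 and 4 (FDR 0.0694 to 0.0852). Mmp2, a gelatinase, was variable, with 8.78 to 40.1 CPM in Kat6a+/+ libraries against 11.2 to 30.0 CPM in Kat6a-/- libraries (FDR 0.785).

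Of the inhibitors, Timp3, which is bound to the matrix, had 32.5, 29.9, 47.0 and 38.6 CPM in Kat6a+/+ libraries against 67.9, 81.7, 77.7 and 61.0 CPM in Kat6a-/- libraries. The groups did not overlap, and the log2 fold-change was 0.99 (SE 0.15, FDR 0.000538). Timp2, which also takes part in the activation of pro-MMP2 by MMP14, rose by a smaller amount, with 63.1 to 83.3 CPM in Kat6a+/+ libraries against 90.6 to 111 CPM in Kat6a-/- libraries (log2 fold-change 0.52, SE 0.11, FDR 0.00421). Timp1, a secreted inhibitor, had 4.93 to 8.85 CPM in Kat6a+/+ libraries against 3.50 to 6.68 CPM in Kat6a-/- libraries (log2 fold-change -0.30, FDR 0.398). In this condition 3 of the 8 genes had all Kat6a-/- libraries above all Kat6a+/+ libraries, beside 13.7% of all genes, and 1, Plat, had them all below, beside 17.6%.

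The summed level of 9 microglia markers moved with genotype in proliferating NSPCs, at 1.27 to 1.41 CPM in Kat6a+/+ libraries against 6.38 to 8.38 CPM in Kat6a-/- libraries. Of these markers, 1 was above 1 CPM and 1 passed the filter (log2 fold-change 2.51), so that the sum rests largely on 1 gene. Cx3cr1, Itgam, Trem2 and C1qa were at 0 in both groups. The sum of 7 astrocyte markers was 209 to 249 CPM in Kat6a+/+ libraries against 426 to 563 CPM in Kat6a-/- libraries. Of 6 astrocyte markers tested, 4 were higher in Kat6a-/- NSPCs, beside 16.2% of all genes, and 2 were not called. Aldh1l1 had the lower mean in Kat6a-/- NSPCs, at 16.2 ± 10.1 CPM in Kat6a+/+ against 4.55 ± 2.05 CPM in Kat6a-/- libraries (mean ± SD, n = 4). The part of either in these results was not tested. In bulk RNA, fewer cells of a type and less RNA per cell cannot be told apart.

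**Figure D2:**
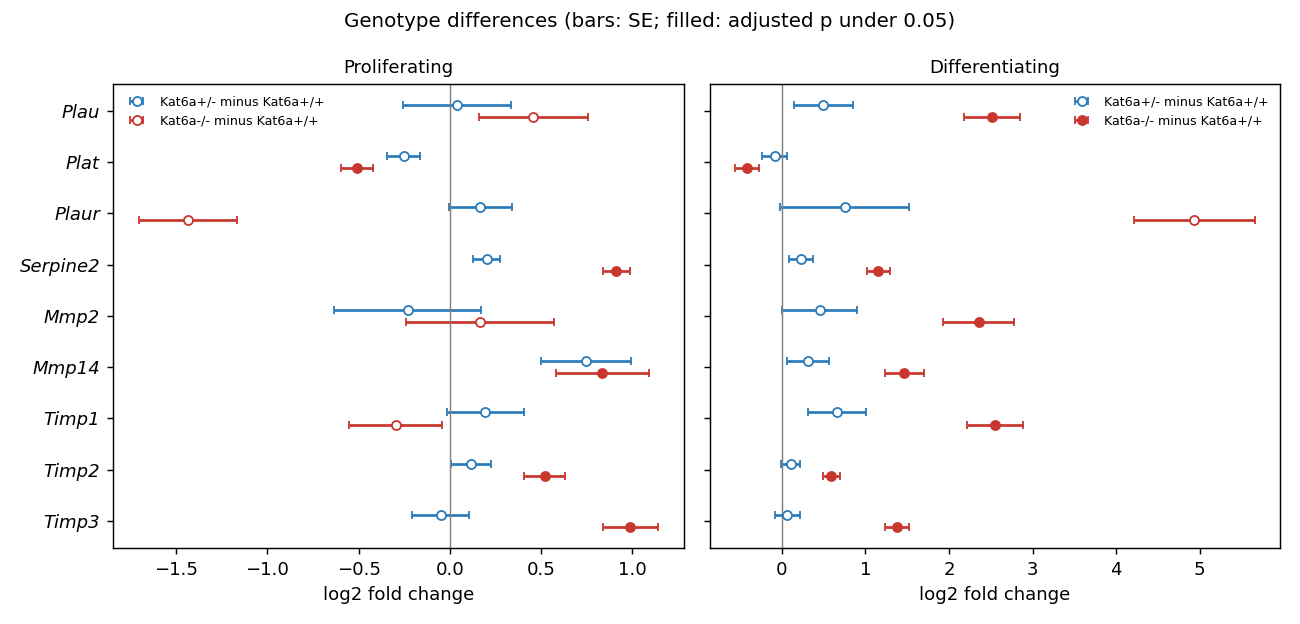
Fitted log2 fold-changes against Kat6a+/+ in proliferating (left) and differentiating (right) NSPCs for Kat6a+/- and Kat6a-/-, with bars for the SE and filled points for FDR under 0.05. Plaur was not tested and is drawn open, in Kat6a-/- at -1.44 and 4.93, and no Kat6a+/- point is filled.

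In differentiating NSPCs, 7 of the 8 genes tested were higher in Kat6a-/- than in Kat6a+/+ NSPCs and Plat was lower, so that all 8 were called, beside 54.4% of all 13339 genes (26.7% higher and 27.7% lower). Their median log2 fold-change was 1.42 against -0.02 for all genes. Fold changes were larger than 4 for Timp1, Plau and Mmp2 and smaller than 3 for the others. All 4 Kat6a-/- libraries lay above all Kat6a+/+ libraries for 7 of the 8 genes, beside 12.2% of all genes. The count of calls fell to 1, Serpine2, without Kat6a-/- replicate 3 and to 2, Serpine2 and Timp3, without Kat6a-/- replicate 1. Without quality weights, 7 genes were called and Plat was not. In this condition, litters 4633 and 4746 held all 3 genotypes and the other litters held a single genotype each. A fixed litter term therefore compares genotypes within these 2 litters alone. With it 5 genes were called, while Plat, Timp2 and Mmp2 were not (FDR 0.294, 0.0902 and 0.115). In both litters, each Kat6a-/- library was above the Kat6a+/+ library for Timp2 and Mmp2. For Plat, Kat6a-/- was below in 1 litter and overlapped in the other.

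Plau had 1.16, 1.47, 2.12 and 1.05 CPM in Kat6a+/+ libraries against 8.46, 4.78, 10.2 and 4.20 CPM in Kat6a-/- libraries. Each Kat6a-/- library was above the highest Kat6a+/+ library, with replicates 1 and 3 highest. The log2 fold-change was 2.51 (SE 0.33, FDR 6.49e-05), and 1.89 (FDR 0.111) without replicate 3 and 2.13 (FDR 0.0565) without replicate 1. Plat had 593, 535, 542 and 759 CPM in Kat6a+/+ libraries against 423, 827.5, 421 and 514 CPM in Kat6a-/- libraries. Kat6a-/- replicate 2, which has the smallest weight, was the highest of the 8, and the groups overlapped. The log2 fold-change of Plat was -0.41 (SE 0.14, FDR 0.0259), and leaving out replicate 3 of Kat6a-/- turned it to 0.11 (FDR 0.87), while leaving out replicate 1 of Kat6a-/- turned it to 0.01 (FDR 0.984). Without Kat6a+/+ replicate 1, whose embryo label is in doubt, the FDR was 0.074.

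Plaur was near the limit of detection in differentiating Kat6a+/+ NSPCs, with 0.385, 1.04, 0.0965 and 0 CPM, which were 7, 19, 2 and 0 counts. It had 0.362, 2.94, 0.278 and 0.202 CPM in Kat6a+/- libraries and 14.4, 0.425, 13.1 and 2.32 CPM in Kat6a-/- libraries. Replicates 1 and 3 of Kat6a-/- were above all other differentiating libraries, while replicate 2 lay inside the Kat6a+/+ range. The fitted log2 fold-change of Kat6a-/- against Kat6a+/+ was 4.93 (SE 0.72), and it was 3.54 without quality weights, 2.96 without replicate 1 and 2.48 without replicate 3. A value fitted against so few counts depends on the prior count.

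Serpine2 had 853.5, 991, 975 and 861 CPM in Kat6a+/+ libraries against 2284, 1774, 2099 and 1350 CPM in Kat6a-/- libraries. The groups were apart, and the log2 fold-change was 1.16 (SE 0.13, FDR 2.38e-05). It remained called when any one library was left out, with FDR up to 0.0293.

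Mmp2 had 3.03, 2.46, 3.38 and 1.05 CPM in Kat6a+/+ libraries against 8.53, 3.77, 16.6 and 19.4 CPM in Kat6a-/- libraries, with replicate 2 just above the Kat6a+/+ range. The log2 fold-change was 2.36 (SE 0.42, FDR 0.000589), and 1.12 (FDR 0.486) without replicate 3 and 1.56 (FDR 0.282) without replicate 1. Mmp14 had 80.1, 44.1, 66.7 and 37.8 CPM in Kat6a+/+ libraries against 158, 86.8, 199 and 130 CPM in Kat6a-/- libraries. The groups did not overlap, and the log2 fold-change was 1.47 (SE 0.24, FDR 0.000272), or 0.80 (FDR 0.355) without replicate 3 and 1.03 (FDR 0.199) without replicate 1.

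Timp1 had 2.09, 3.28, 1.35 and 1.34 CPM in Kat6a+/+ libraries against 10.7, 7.01, 12.1 and 6.52 CPM in Kat6a-/- libraries. The lowest Kat6a-/- library was above the highest Kat6a+/+ library, and the log2 fold-change was 2.55 (SE 0.33, FDR 5.63e-05). Timp3 had 252, 295, 249 and 169.8 CPM in Kat6a+/+ libraries against 557, 425, 681 and 505 CPM in Kat6a-/- libraries. Its log2 fold-change was 1.38 (SE 0.14, FDR 1.5e-05). Timp2, at 1148 to 1473 CPM in Kat6a+/+ libraries against 1682 to 2238 CPM in Kat6a-/- libraries, changed least of the inhibitors (log2 fold-change 0.59, SE 0.10, FDR 0.000456). Timp1 and Timp2 were not called without Kat6a-/- replicate 1 (FDR 0.0538 and 0.0533) or replicate 3 (FDR 0.0959 and 0.0865), and Timp3 was not called without replicate 3 (FDR 0.0652).

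Markers of other cell types were compared between Kat6a-/- and Kat6a+/+ differentiating NSPCs, where 54.4% of all genes were called (26.7% higher and 27.7% lower). Counts of markers called are to be read beside these shares. Of 6 neuron markers, 1 was higher and 3 were lower in Kat6a-/- NSPCs. Dcx, which encodes doublecortin, was at 39.3 ± 23.9 CPM in Kat6a+/+ against 4.55 ± 3.77 CPM in Kat6a-/- libraries (mean ± SD, n = 4, limma FDR 1.83e-05). Mean Tubb3, Rbfox3 and Snap25 were also lower, at 72.2, 5.27 and 2.74 CPM in Kat6a+/+ against 45.2, 3.95 and 0.793 CPM in Kat6a-/- libraries. The remaining neuron markers went the other way in their means. Stmn2 was at 0.0912 ± 0.110 against 2.13 ± 1.42 CPM, and Map2 at 468 ± 24.1 against 533 ± 140 CPM. By flow cytometry, the paper reports fewer ßIII-tubulin-positive cells in differentiating Kat6a+/- and Kat6a-/- cultures. Proportions of GFAP-positive cells did not differ significantly there. The paper cautions that cell composition differed between genotypes in this condition. Of 5 oligodendrocyte markers tested, 1 was higher and 3 were lower. Pdgfra, a receptor of oligodendrocyte precursors, was at 41.8 ± 16.6 against 9.63 ± 3.86 CPM (limma FDR 6.02e-05). Cspg4 had the higher mean in Kat6a-/- NSPCs, at 27.1 ± 9.40 against 80.3 ± 48.6 CPM. Of 7 astrocyte markers, 1 was higher and 2 were lower. Their sum was 996 to 1633 CPM in Kat6a+/+ libraries and 800, 5193.5, 1023 and 2339 CPM in Kat6a-/- libraries, replicates 1 to 4, so that replicate 2 stood apart. The 1 endothelial marker tested was lower, and of 10 NSPC markers 3 were higher and 5 lower.

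Of 6 mesenchymal and meningeal markers tested, 4 were higher in differentiating Kat6a-/- than in Kat6a+/+ NSPCs, beside 26.7% of all genes. The sum of all 10 such markers was 226 to 671 CPM in Kat6a+/+ libraries, and the highest Kat6a-/- sum was 934 CPM and the lowest 148 CPM. In Kat6a-/- libraries, replicates 1 and 3 had the highest sums and the highest Plaur, Plau and Timp1, and replicate 2 had the lowest sum. The highest sum of all was 1811 CPM in Kat6a+/- replicate 2, which had 2.94 CPM of Plaur and 13.0 CPM of Mmp2, the highest of the Kat6a+/- libraries for both. Other values went against this order. Timp1 was highest among Kat6a+/- libraries in replicate 4, at 6.92 CPM, where the sum was lowest at 154 CPM. Mmp2 was highest among Kat6a-/- libraries in replicate 4, at 19.4 CPM, where the sum was 599 CPM. Lum was at 0 in all libraries of both mutant groups. In proliferating NSPCs the sum was 21.6 to 31.3 CPM in all 12 libraries. The part of any of these cell types in the results was not tested.

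**Figure D3:**
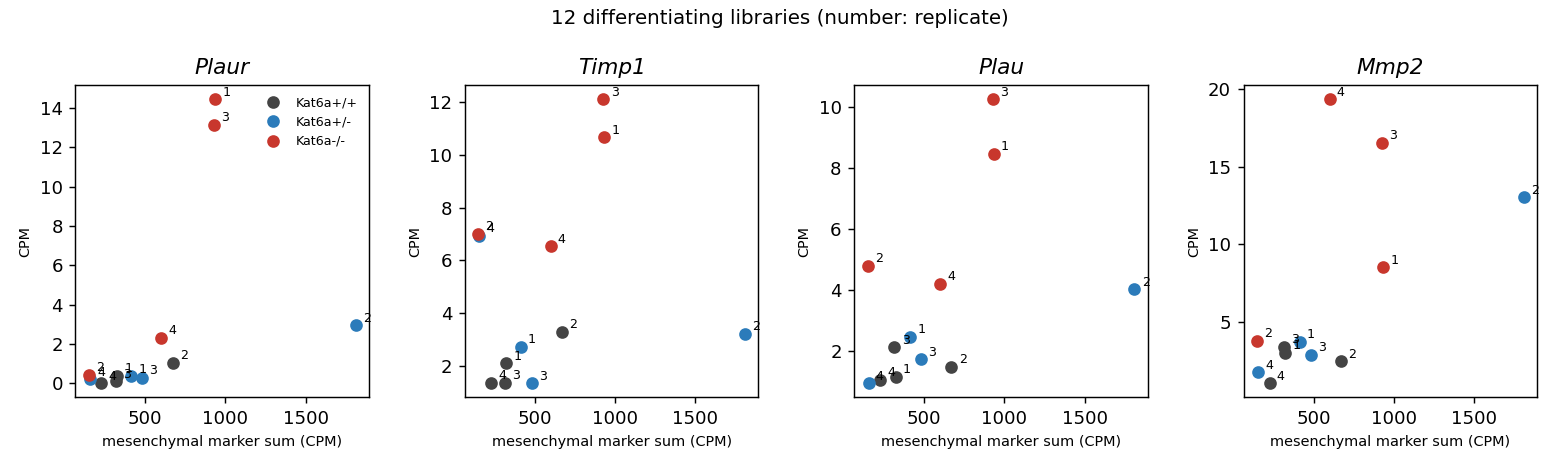
CPM of Plaur, Timp1, Plau and Mmp2 against the summed CPM of 10 mesenchymal and meningeal markers in the 12 differentiating libraries, with the replicate number beside each point. Kat6a-/- replicates 1 and 3 lie at marker sums of 934 and 929 CPM with the highest Plaur, Timp1 and Plau, and Kat6a+/- replicate 2 lies at 1811 CPM.

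Loss of 1 allele was examined by comparing Kat6a+/- and Kat6a+/+ NSPCs. None of the 8 genes tested was called by limma in either condition, beside 0% of all genes, and edgeR and DESeq2 called 0 of the 8 as well. At an unadjusted p under 0.05, Plat, Serpine2 and Mmp14 passed in proliferating NSPCs, beside 7.43% of all genes, and none passed in differentiating NSPCs, beside 14.4%. In proliferating NSPCs, Plat had 433, 423, 417 and 348 CPM in Kat6a+/- libraries, all below the Kat6a+/+ libraries (1 of 8 genes, beside 2.64% of all genes; log2 fold-change -0.25, SE 0.09, FDR 0.52). Serpine2 had 2014, 1801, 2005 and 1863 CPM, all above the Kat6a+/+ libraries (1 of 8 genes, beside 1.89% of all genes; log2 fold-change 0.20, SE 0.08, FDR 0.55). Mmp14 had a log2 fold-change of 0.75 (SE 0.25, FDR 0.486) in Kat6a+/- and 0.84 in Kat6a-/- NSPCs, and both comparisons used the same Kat6a+/+ libraries. For Plaur, the fitted log2 fold-changes of Kat6a+/- against Kat6a+/+ were 0.17 (SE 0.17) in proliferating and 0.75 (SE 0.77) in differentiating NSPCs, given without a test.

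Kat6a-/- and Kat6a+/- NSPCs were compared as well. In proliferating NSPCs 3 of 8 genes were called, beside 14.8% of all genes, and these were Serpine2 (log2 fold-change 0.71, FDR 0.000125), Timp3 (1.04, FDR 0.00122) and Timp2 (0.41, FDR 0.0247), all higher in Kat6a-/-, beside 8.47% of all genes. In differentiating NSPCs 7 of 8 were called, beside 37.5% of all genes, and all 7 were higher in Kat6a-/-, beside 19.1% of all genes. The Timp2 call in proliferating NSPCs was lost without Kat6a-/- replicate 1 or 4 or Kat6a+/- replicate 3 (FDR 0.0779 to 0.0806). Plat was not called in either condition (FDR 0.0564 and 0.134). It was called as lower in proliferating NSPCs when replicate 3 of Kat6a-/- (FDR 0.0275) or replicate 4 of Kat6a+/- (FDR 0.0404) was left out. In differentiating NSPCs, Plat was called as lower in 1 of the 12 fits that left out a library (FDR 0.0116). None of the 8 genes was called by limma in differentiating NSPCs without Kat6a-/- replicate 1 or replicate 3, and Mmp2 was also not called without Kat6a+/- replicate 1 (FDR 0.0666) or replicate 4 (FDR 0.0526). With litter as a fixed term 2 of the 7 calls were kept, Serpine2 (FDR 0.042) and Timp1 (FDR 0.037), while Plau, Mmp2, Mmp14, Timp2 and Timp3 were not called (FDR 0.0587 to 0.667). With the edgeR quasi-likelihood test Mmp2, Mmp14 and Timp1 were not called (FDR 0.072 to 0.25).

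The change from proliferating to differentiating conditions was compared within each genotype. In Kat6a+/+ NSPCs 5 of 8 genes were called, beside 72.9% of all 13590 genes (36.7% higher and 36.2% lower). The inhibitors Timp2 and Timp3 rose, by 4.17 (SE 0.14, FDR 1.35e-15) and 2.75 (SE 0.20, FDR 1.42e-10) on the log2 scale. Mmp2 fell by 2.86 (SE 0.75, FDR 0.00176), Timp1 fell by 2.03 (SE 0.40, FDR 0.000118) and Serpine2 fell by 0.86 (SE 0.15, FDR 2.2e-05). The libraries of the 2 conditions did not overlap for these 5 genes and for Plat, so that 3 genes had all differentiating libraries above, beside 36.7% of all genes, and 3 had them all below, beside 35.2%. The same 5 genes were called in the same directions in Kat6a+/- NSPCs, beside 69.7% of all genes. Plaur, given without a test, had fitted log2 fold-changes of -5.57 (SE 1.39) in Kat6a+/+ and -4.01 (SE 1.15) in Kat6a+/- NSPCs. Plat was called as higher there without differentiating Kat6a+/- replicate 4 (FDR 0.0171) or differentiating Kat6a-/- replicate 2 (FDR 0.0166).

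In Kat6a-/- NSPCs 6 of 8 genes were called, beside 69.2% of all genes. Timp2 and Timp3 rose by 4.26 and 2.90 on the log2 scale, and Serpine2 fell by 0.74. Plau (log2 fold-change 1.22, SE 0.39, FDR 0.00921), Plat (0.64, SE 0.17, FDR 0.00271) and Mmp14 (0.84, SE 0.30, FDR 0.0178) were higher in differentiating cells. Timp1 had a log2 fold-change of 0.73 (FDR 0.0858) and Mmp2 of -1.17 (FDR 0.055). The Mmp14 call was lost without differentiating Kat6a-/- replicate 3 or proliferating Kat6a-/- replicates 2 or 3 (FDR 0.0576 to 0.0906), and Mmp2 was called as lower without any one of 5 libraries, which were differentiating Kat6a-/- replicates 3 and 4, differentiating Kat6a+/- replicate 2, proliferating Kat6a-/- replicate 3 and proliferating Kat6a+/+ replicate 3 (FDR 0.0159 to 0.0443). Plaur had a fitted log2 fold-change of 0.40 (SE 0.94). In the 3 Kat6a-/- embryos with libraries in both conditions, Plaur went from 3.99 to 0.425 CPM, from 2.63 to 13.1 CPM and from 1.89 to 2.32 CPM, so that the embryos moved in different directions. In the 2 Kat6a+/+ embryos it went from 8.98 to 0.385 CPM, in the embryo whose label is in doubt, and from 5.83 to 0.0965 CPM.

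**Figure D4:**
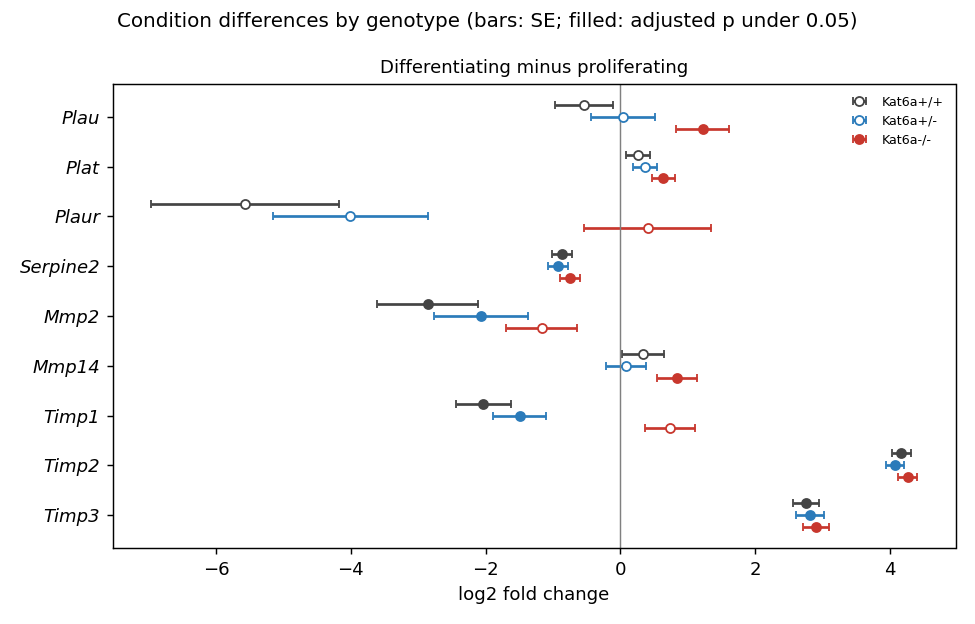
Fitted log2 fold-changes of differentiating against proliferating NSPCs in each genotype, with bars for the SE and filled points for FDR under 0.05. Plaur was not tested and is drawn open, at 0.40 in Kat6a-/-, -5.57 in Kat6a+/+ and -4.01 in Kat6a+/-, and the Timp2 and Timp3 points of the 3 genotypes lie close together.

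Whether the effect of Kat6a-/- differed between the conditions was tested with an interaction term. Timp1 (2.76, SE 0.55, FDR 0.00195) and Plau (1.76, SE 0.59, FDR 0.0485) passed, 2 of 8 genes beside 13.9% of all genes, both with a higher estimate in differentiating NSPCs. Timp1 was called when any one of the 24 libraries was left out (FDR 0.000857 to 0.0101), while Plau lost its call in 20 of the 24 such fits and kept it without differentiating Kat6a+/- replicates 2 or 4 or Kat6a-/- replicates 2 or 4 (FDR 0.0257 to 0.0426). With embryo as the random block in place of litter, Timp1 was called (FDR 0.00224) and Plau was not (FDR 0.0542). Serpine2 (0.12, FDR 0.752), Timp2 (0.10, FDR 0.788) and Timp3 (0.15, FDR 0.754) were not called, with SEs of 0.21, 0.20 and 0.28. For Plaur the estimate was 5.97 (SE 1.68), a value that chose the gene. No gene of the 8 was called by limma, edgeR or DESeq2 for the interaction of Kat6a+/- and condition, beside 0% of all genes by limma, and none had an unadjusted p under 0.05, beside 3.03%.

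The genes whose log2 CPM followed Plaur most closely over the 24 libraries, of 13589 ranked, were Adamts14 and Wsb2 (Pearson's r 0.948 for both), Msn (0.947), Lif (0.94) and 1810055G02Rik (0.94). These libraries share conditions and genotypes, so that r is a description. Adamts14, a procollagen peptidase, was at 61.0 ± 7.70 CPM in proliferating Kat6a+/+ and 30.6 ± 3.56 CPM in proliferating Kat6a-/- NSPCs, and at 7.72 ± 7.39 and 51.4 ± 38.6 CPM in the same genotypes when differentiating (mean ± SD, n = 4). Among the other 8 genes, r with Plaur was highest for Mmp2 (0.791) and Timp1 (0.785) and lowest for Timp2 (-0.584).

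Related genes were examined as lists in Kat6a-/- against Kat6a+/+ NSPCs, for which the shares of all genes called are those given above. Median log2 fold-changes of the 6 lists lay between -0.42 and 0.94 in proliferating and between 0.49 and 1.22 in differentiating NSPCs. List counts were not recomputed without single libraries. Of the other plasminogen system genes, 3 were higher and 1 lower of 9 tested in proliferating NSPCs, and 6 were higher of 10 tested in differentiating NSPCs. S100a10, whose product binds plasminogen at the cell surface with annexin A2, was lower in proliferating Kat6a-/- NSPCs (53.6 ± 14.2 against 153 ± 14.3 CPM, FDR 0.000111), and Plgrkt, a plasminogen receptor, was higher (log2 fold-change 0.49, FDR 0.00395). Lrp1, an endocytic receptor that clears protease and serpin complexes, and Anxa2 were higher in differentiating Kat6a-/- NSPCs, with log2 fold-changes of 1.38 (FDR 6e-06) and 0.98 (FDR 2.25e-05). Plg, which encodes plasminogen itself, did not pass the filter in either condition.

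Of 8 receptor partners, 3 were higher and 1 lower in proliferating and 7 higher in differentiating Kat6a-/- NSPCs. The integrin genes Itgb5 (log2 fold-change 1.24, FDR 8.7e-05) and Itgav (0.72, FDR 0.000123) were higher in proliferating NSPCs, and Itgav (2.05, FDR 1.43e-05) and Itga5 (1.30, FDR 7.83e-05) in differentiating NSPCs. Other matrix metalloprotease genes were 3 higher and 1 lower of 6 tested in proliferating and 6 higher of 8 tested in differentiating NSPCs. Mmp16, a membrane-type metalloprotease, was at 4.73 ± 1.97 CPM in Kat6a+/+ libraries against 20.3 ± 2.58 CPM in Kat6a-/- proliferating NSPCs (FDR 0.000159), and Mmp17 was lower (log2 fold-change -1.05, FDR 0.00185). In differentiating NSPCs, Mmp28 (1.95, FDR 3.69e-05) and Mmp11 (1.09, FDR 0.000435) were higher.

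Among metalloprotease regulators, 1 of 6 was higher in proliferating and 6 of 6 in differentiating NSPCs. Timp4, the remaining TIMP gene, was higher in both conditions (log2 fold-change 1.65, FDR 3.23e-06, and 2.22, FDR 4.83e-05), Furin, a proprotein convertase, was higher in differentiating NSPCs (0.83, FDR 2.73e-05), and Pcolce had a log2 fold-change of 0.86 (FDR 0.0719) in proliferating NSPCs. Of 9 ADAM genes, 3 were higher and 3 lower in proliferating and 6 higher in differentiating NSPCs. Adam12 was higher in both (0.68, FDR 0.000483, and 1.80, FDR 0.000125), Adam22 in proliferating (1.31, FDR 0.00318) and Adam15 in differentiating NSPCs (1.13, FDR 4.93e-06). ADAMTS genes were 2 higher and 7 lower of 16 in proliferating and 10 higher and 1 lower of 16 in differentiating NSPCs. Adamts19 was at 3.15 ± 0.893 CPM in Kat6a+/+ and at most 0.113 CPM in Kat6a-/- proliferating NSPCs (FDR 6.28e-05). Adamts14 was lower in proliferating (-0.95, FDR 0.000144) and higher in differentiating NSPCs (3.75, FDR 2.59e-05), and Adamts1 was higher in differentiating NSPCs (1.51, FDR 4.69e-05).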

How the data were processed

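Messenger RNA was measured in 24 libraries. Per the study's methods, the authors aligned reads to mm39 with Rsubread, and they deposited raw counts of reads per gene made with featureCounts and a RefSeq annotation. The methods date the annotation and name a stranded library kit. Tool versions for these libraries and the strand setting of the counting are not given in the sources used here. The labels gave genotype, condition, replicate number, litter and embryo.

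Protein-coding genes (21030 of 26411, where 52 genes had no biotype and were left out) that passed filterByExpr (minimum count 10) were kept, without Xist and the genes found on the Y chromosome alone. Library sizes were scaled with TMM factors (edgeR 4.0.16). In limma 3.58.1 on R 4.3.3, proliferating libraries were fitted with voom and litter as a random block (correlation 0.287), and differentiating libraries with limma-trend (prior count 2) and library quality weights. All 24 libraries were fitted together with voom and the litter block (correlation 0.00365) for condition contrasts and interactions. Moderation was robust. FDR is the Benjamini-Hochberg adjusted p over all genes tested, with a threshold of 0.05. CPM and RPKM were computed from counts over TMM-scaled totals without weights, so a fitted fold-change can differ from a ratio of means. Fits that left out a library kept the within-litter correlation of the full fit. DESeq2 1.42.0 and edgeR were alternatives. Scripts were tested on simulated data.

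Plaur, for which a test had been planned in some comparisons, was left untested in all. The 9 genes, the related lists and the motifs were chosen with earlier results of these data known. All 9 genes are described. From each related list, the 2 tested genes with the smallest p in Kat6a-/- against Kat6a+/+ NSPCs were named in each condition. Genes like Plaur were the 5 with the highest r. Replicates of a group differed by more than sampling noise (chi-square per degree of freedom at least 5.55).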

Additional observations from a re-analysis of the deposited data

Results flagged for a closer look

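In differentiating Kat6a+/- NSPCs, replicate 2 had 2.94 CPM of Plaur, far from the other 3 libraries at 0.202 to 0.362 CPM. In proliferating Kat6a+/- NSPCs, replicate 1 had 13.0 CPM of Timp1, far from the other 3 libraries at 6.42 to 7.32 CPM. These were 2 of 54 groups examined for a single distant library, and chance alone marks about 1 in 20 groups.

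The Kat6a-/- effect differed between differentiating and proliferating NSPCs by the interaction term for Timp1 (2.76 on the log2 scale, limma FDR 0.00195) and for Plau (1.76, limma FDR 0.0485). The Plau call was lost in 20 of 24 fits that left out a library and with embryo as the random block (limma FDR 0.0542).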

How the results depend on the processing

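Of all values recomputed under the alternatives, 2671 kept their direction and side of the threshold or moved by less than the spread between replicates, 91 lost and 22 gained a call, 20 moved further and 4 reversed. In differentiating NSPCs, the count of genes called in Kat6a-/- against Kat6a+/+ was 5 of 8 with litter as a fixed term, and between 1 and 8 when single libraries were left out. In Kat6a-/- against Kat6a+/- the count was 2 with litter as a fixed term and 4 with the edgeR quasi-likelihood test or with Y-linked reads as a fixed term, an alternative chosen after seeing the data, and between 0 and 8 when single libraries were left out. For the interaction with Kat6a-/-, 1 gene was called with DESeq2 size factors, with library totals, with no filter on low counts and with embryo as the random block, also with litters 4346 and 4364 as 1 (chosen after seeing the data), and 1 or 2 when single libraries were left out. The cause was not tested. Without Kat6a-/- differentiating replicate 1 or 3, Plat in differentiating Kat6a-/- against Kat6a+/+ NSPCs turned to 0.01 and 0.11 (range over single libraries left out -0.51 to 0.11), and Plaur between the conditions in Kat6a-/- turned to -0.21 and -0.24 (range -0.24 to 1.54). Mmp14 in proliferating NSPCs lost its call with a fixed litter term (FDR 0.0744) and with a term for Y-linked reads (FDR 0.0612).

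Replicate numbers were not used to pair samples in the main fits, and in no comparison were all 4 pairs of deviations correlated above 0.1. By their labels, some replicate numbers did join libraries of the same embryo across the conditions. These were Kat6a+/+ replicates 1 and 3 and Kat6a-/- replicates 2, 3 and 4. The low correlations cannot show that such libraries are unpaired. With the replicate block, 5 of 8 genes were called in Kat6a-/- against Kat6a+/+ proliferating NSPCs and 8 of 8 in differentiating NSPCs, and the block changed none of the 11 counts of calls. Depth limits Plaur in differentiating Kat6a+/+ NSPCs, where counts were 0 to 19.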
